A study of Mus musculus with 18 samples.

Results

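The FGF receptors and the feedback genes of ERK signalling are described here as a set of 10 genes: the ligand Fgf4, the receptors Fgfr1 and Fgfr2, the Sprouty and Spred inhibitors Spry2, Spry4 and Spred1, the ERK phosphatases Dusp4 and Dusp6, and the ETS transcription factors Etv4 and Etv5. They were chosen by symbol among the 14804 genes held by the expression tables of 3 mouse stem cell types. All 10 were in the table of embryonic stem cells (ESCs, 13578 genes). All but Fgf4 were in the tables of trophoblast stem cells (TSCs, 13518 genes) and of extra-embryonic endoderm (XEN) cells (11538 genes). RNA was sequenced in bulk from each cell type in normoxia, on day 2 of hypoxia and on day 7 of hypoxia, with 2 biological replicates each, per the study's methods, which makes 9 groups and 18 libraries. Both days of a cell type were compared with the same normoxic pair, and the labels give that pair no day. Days in hypoxia and days in culture therefore cannot be told apart. No group carried a genetic change. The ESCs were the wild-type line E14, grown without feeders in serum with LIF. TSCs were grown on fibroblast feeders with added FGF4 and heparin. XEN cells were grown in medium partly conditioned on embryonic fibroblasts, and the labels name no line for TSCs or XEN cells.

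Fibroblast growth factors bind receptor tyrosine kinases together with heparan sulphate, and the receptors drive the RAS, RAF, MEK and ERK kinases. Active ERK raises the transcription of its own inhibitors, among them Sprouty and Spred proteins and the phosphatases DUSP4 and DUSP6, and of the transcription factors ETV4 and ETV5, so transcripts of these genes are widely read as a record of ERK signalling. In the blastocyst, FGF4 from the epiblast acts on the neighbouring primitive endoderm and trophectoderm. TSCs need FGF4 in culture to stay undifferentiated.

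The sequences before the genes whose transcripts changed in TSCs are shown because hypoxia-inducible factors bind the short cores ACGTG and GCGTG. RefSeq windows (GRCm38.p6) from 250 bases before to 50 after a transcript start were found for 6 of the 10 genes, 7 windows in all, and not for Fgfr1, Spry4, Dusp4 or Etv4. Capitals mark a core on either strand. The windows are Etv5 at chr16:22439521-22439820 on the minus strand, Spred1 at chr2:117120821-117121120 on the plus strand and Fgfr2 at chr7:130266759-130267058 on the minus strand, each written 5′ to 3′ on its own strand. A second Etv5 start has a window at chr16:22438319-22438618 that holds 0 cores and is not printed.
Etv5: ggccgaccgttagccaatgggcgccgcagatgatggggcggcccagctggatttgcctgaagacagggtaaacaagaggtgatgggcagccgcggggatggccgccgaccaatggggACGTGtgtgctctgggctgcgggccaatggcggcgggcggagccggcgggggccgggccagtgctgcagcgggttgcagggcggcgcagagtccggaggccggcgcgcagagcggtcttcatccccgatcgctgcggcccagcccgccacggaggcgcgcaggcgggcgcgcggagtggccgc
Spred1: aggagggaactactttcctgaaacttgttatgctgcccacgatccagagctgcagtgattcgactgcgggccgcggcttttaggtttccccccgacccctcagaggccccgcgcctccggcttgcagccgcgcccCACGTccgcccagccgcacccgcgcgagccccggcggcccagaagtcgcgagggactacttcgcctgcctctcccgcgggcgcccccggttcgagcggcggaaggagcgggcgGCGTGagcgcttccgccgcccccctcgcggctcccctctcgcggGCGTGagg
Fgfr2: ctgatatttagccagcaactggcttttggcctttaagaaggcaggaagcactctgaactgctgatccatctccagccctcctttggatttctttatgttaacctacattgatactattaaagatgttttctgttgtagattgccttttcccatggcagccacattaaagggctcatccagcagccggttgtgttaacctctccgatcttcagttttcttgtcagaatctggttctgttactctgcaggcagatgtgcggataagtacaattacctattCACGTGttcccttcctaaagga

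Counted from 0 at the start site, ACGTG lay at -133 in the printed window of Etv5, on the other strand at -115 in Spred1, and at 28 and 29 on the opposite strands of Fgfr2, where the matches overlap. The core GCGTG lay at -2 and 42 in Spred1 and at 2 in Spry2. Of the 7 windows, 4 held a core, beside 43.8% of 32851 promoter windows of the same length. The ETS sites CCGGAAGT and CAGGAAGT were in 0 of the 7 windows, beside 7.07% of all windows that held either. These matches are descriptions of letters in a window and not binding sites.

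The libraries held between 35330100 and 74521200 reads on genes whose counts could be recovered. Summed TPM of 7 XEN markers lay between 2376 and 2882 in XEN cells, and between 6.84 and 25.1 in ESCs and TSCs. That of 7 TSC markers lay between 855 and 1406 in TSCs, up to 207 in ESCs and up to 32.5 in XEN cells. That of 6 ESC markers lay between 7325 and 8109 in ESCs and up to 1261 elsewhere. The 12 fibroblast markers were all in the TSC table, with summed TPM between 232 and 2011 across the libraries. Only 7 of them were in the ESC table (sums between 38.6 and 52.2) and 2 in the XEN table (0.191 to 0.65, with Col1a1, Thy1 and Prrx1 absent). Of the hypoxia response genes in TSCs, Pdk1 and Bnip3 rose on day 2 (log2 fold changes of 2.47 and 2.46). Called lower from day 2 to day 7 were 6 of the 10 tested, beside 13.8% of all genes. On day 7, Pdk1 stood at 15.6 and 15.2 TPM, beside 15.5 and 14.5 in normoxia, and Bnip3 at 25.0 and 26.8, beside 15.7 and 16.2. Against normoxia, 4 of the 10 lay above without overlap on day 7, beside 8.98% of all genes, and 0 were called, beside 0.385%. In a bulk library, fewer cells of a type and less RNA per cell cannot be told apart.

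Values within a gene are given as deposited TPM, a length-scaled share of a library. Whole reads came out for 98.7% to 98.9% of the values of a library when the length was taken from gene start to gene end, introns included, and for 9.98% to 10.9% with the summed exon length. Levels of different genes are compared only as TPM recomputed from the recovered reads with the summed exon length, called TPM per exon length. The choice matters most for Fgfr2 (chromosome 7, 130162451 to 133123350, minus strand, GRCm38). Its annotated span is 2960900 bases, because 1 of its 27 transcripts reaches 2 distant exons, whereas the other 26 span 103813 bases. Its deposited TPM therefore lay between 0.0537 and 0.865 in all libraries, although it had between 633 and 10205 reads, and its values below are per exon length throughout. The distant exons hold 314 bases and share bases with an exon of Ctbp2. Fgfr1 (chromosome 8, 25513654 to 25575718, plus strand) overlaps an antisense gene that was not analysed here, so reads of the pair may be shared.

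Levels differed widely between the genes and cell types. Each table was normalized on its own, so levels between cell types were not tested. They are given as the share of genes of the same table whose median over the 6 libraries lay lower. Etv5 was the most abundant of the set in ESCs, with a median of 586 TPM per exon length over 6 libraries (561 to 658), above 98.2% of 13395 genes. Its median was 58.3 in TSCs (17.9 to 86.1), above 73.7% of genes. XEN cells had a median of 15.4 (5.78 to 31.5), above 37.4%. Fgfr1 stood above 69.3% of genes in ESCs and 85.0% in TSCs, with medians of 44.6 and 104 TPM per exon length. In XEN cells Fgfr1 had a median of 0.158 and 10 to 56 reads per library, above 0.405% of genes. Fgfr2 stood above 70.2% of genes in TSCs, 39.4% in ESCs and 25.9% in XEN cells.

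Fgf4, the ligand of the set, had 269, 246, 263, 261, 254 and 230 TPM per exon length in the 6 ESC libraries, where values are listed, as here and below, with the normoxic pair first, then the pair of day 2 and last that of day 7, replicate 1 leading. In ESCs the medians then ran from Etv5 to Fgf4 (257), Spry2 (236), Spry4 (183), Etv4 (160), Dusp6 (97.1), Spred1 (60.2), Fgfr1 (44.6), Dusp4 (33.4) and Fgfr2 (10.3). Neighbours whose ranges overlapped were Fgf4 and Spry2, Spry2 and Spry4, Spry4 and Etv4, Spred1 and Fgfr1, and Fgfr1 and Dusp4, and the remaining neighbours did not overlap. In TSCs the medians ran from Etv4 (131), Dusp4 (113), Fgfr1 (104), Spry2 (99.6), Dusp6 (69.9) and Etv5 (58.3) to Fgfr2 (50.4), Spry4 (36.7) and Spred1 (31.9), and the ranges of all neighbours overlapped. In XEN cells Spry2 (119.8) and Dusp4 (93.3) were the highest, followed by Etv4 (36.8), Dusp6 (33.4), Etv5 (15.4), Spry4 (15.2), Spred1 (14.1) and Fgfr2 (7.77). Among XEN neighbours, Fgfr1 alone did not overlap with the gene above it.

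**Figure D1:**
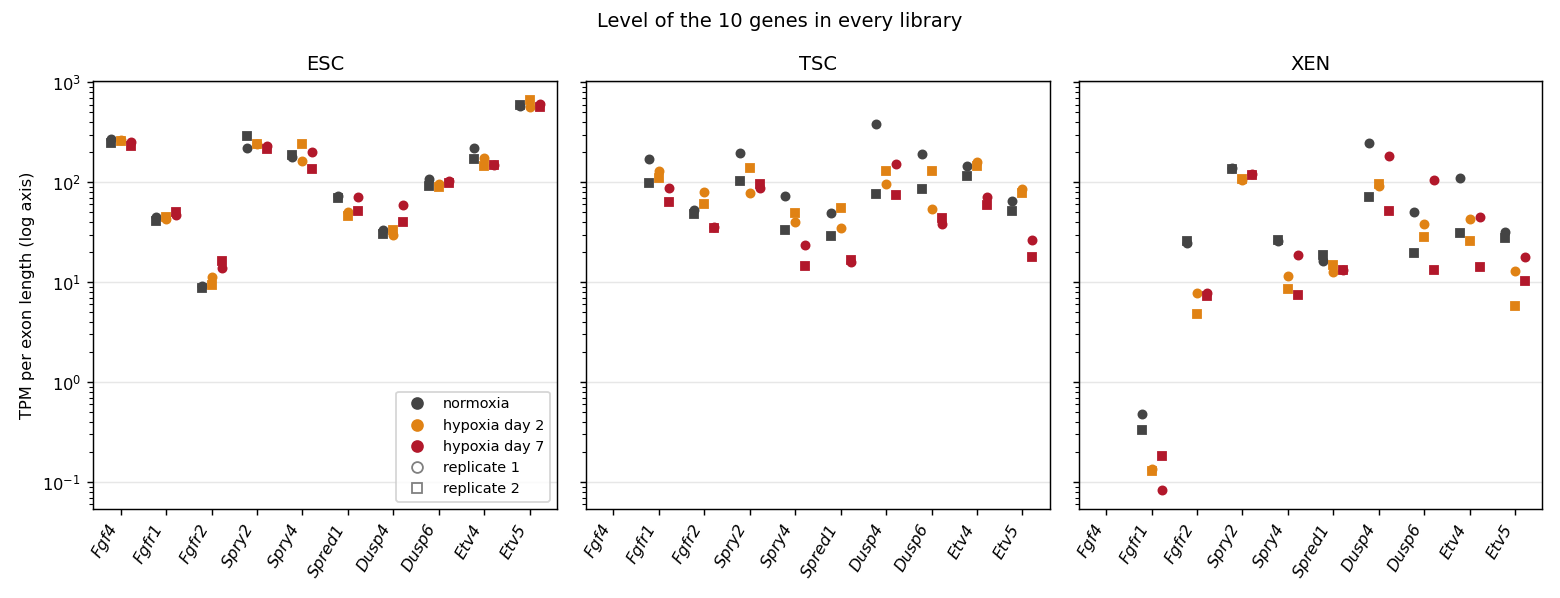
TPM per exon length (log axis) of the 10 genes in each library, with colours for normoxia, day 2 and day 7 of hypoxia and shapes for the replicates. Etv5 lies between 561 and 658 in ESCs and between 5.78 and 31.5 in XEN cells, and Fgfr1 lies between 0.0838 and 0.475 in XEN cells.

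In TSCs, transcripts of 3 of the 9 genes fell from day 2 to day 7 of hypoxia: Etv5, Etv4 and Spred1. A change was called when limma gave a p of at most 0.1 after Benjamini-Hochberg adjustment together with more than a 1.5-fold difference, fitted to log2(TPM + 0.5) of all genes above 0.4 TPM in at least 2 of the 6 libraries, which all 9 genes passed. Called changes made up 16.2% of the 12481 genes tested in this comparison, and called decreases 13.8%. The median log2 fold change was -1.08 over the 9 genes and -0.24 over all genes. Scaling each library by its median ratio instead brought the median of all genes to 0.02 and moved the split of calls from 1723 lower and 296 higher to 968 lower (7.76% of genes) and 738 higher. All 3 calls were kept under that scaling.

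Etv5 encodes an ETS factor that ERK signalling induces. It had 14.2, 11.2, 18.9, 17.1, 5.69 and 3.68 TPM in the 6 TSC libraries. Both day 7 libraries lay below the other 4, and both day 2 libraries lay above the other 4. Etv5 fell by 1.86 ± 0.28 on the log2 scale from day 2 to day 7 (SE, adjusted p = 0.019). Against normoxia it fell short of a call on day 7 (-1.37 ± 0.28, adjusted p = 0.17) in the deposited TPM and passed it per exon length (-1.39 ± 0.24, adjusted p = 0.099).

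Etv4, its close relative, had 91.0, 71.0, 99.6, 90.0, 43.2 and 34.4 TPM. The day 7 libraries were again the lowest, while those of normoxia and day 2 overlapped. Etv4 fell by 1.29 ± 0.21 on the log2 scale from day 2 to day 7 (adjusted p = 0.024), and its difference from normoxia on day 7 was -1.05 ± 0.21 (adjusted p = 0.17). Spred1, which blocks RAF activation by RAS, had 17.3, 9.91, 12.1, 19.0, 5.51 and 5.46 TPM, and the day 7 libraries lay close together below the rest. Spred1 fell by 1.39 ± 0.34 from day 2 to day 7 (adjusted p = 0.055), with a difference from normoxia of -1.19 ± 0.34 (adjusted p = 0.30).

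Fgfr2, the receptor most associated with the trophoblast, had 52.2, 48.6, 79.2, 61.0, 35.9 and 35.0 TPM per exon length. The 3 conditions did not overlap, with day 2 highest and day 7 lowest. Per exon length, Fgfr2 fell by 0.96 ± 0.20 from day 2 to day 7 (adjusted p = 0.039, where 12.3% of genes were called lower), and in the deposited TPM, where the pseudocount is of the order of its values, by 0.53 ± 0.24 (adjusted p = 0.21, not called). Fgfr1 had 85.2, 47.6, 64.2, 55.0, 42.9 and 29.6 TPM. Its day 7 libraries lay below all others, but the difference from day 2 was -0.73 ± 0.32 (adjusted p = 0.19).

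The Sprouty and DUSP transcripts varied more between TSC replicates and none was called. Spry4 had 72.6, 31.8, 39.6, 48.4, 23.0 and 13.2 TPM, a difference of -1.30 ± 0.42 from day 2 to day 7 (adjusted p = 0.10). Dusp6, a cytoplasmic ERK phosphatase, had 439, 194, 123, 298, 86.9 and 94.7 TPM, with a difference of -1.08 ± 0.49 (adjusted p = 0.21). In both genes the day 7 libraries lay below the rest. Spry2 had 263, 136, 105, 187, 115 and 119.7 TPM, and Dusp4, a nuclear phosphatase, had 263, 51.3, 65.9, 87.4, 103 and 47.9. Their day 7 and day 2 libraries overlapped, and their day 7 differences from day 2 of -0.26 and -0.11 became 0.03 and 0.17 under median-ratio scaling.

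Against normoxia, no member was called in TSCs on day 2, where 0.200% of genes were called, or on day 7, where 0.385% were. At an unadjusted p under 0.05 limma gave 0 of 9 on day 2, beside 13.1% of all genes, and 6 of 9 on day 7 (Fgfr1, Spry4, Spred1, Dusp6, Etv4 and Etv5), beside 10.4%. It gave 4 of 9 from day 2 to day 7 (Spry4, Spred1, Etv4 and Etv5), beside 27.9%. Against normoxia, voom on the recovered reads called none on either day. On day 7, 8 of the 9 genes had both libraries below both normoxic libraries, beside 32.3% of all genes, with Dusp4 as the exception. From day 2 to day 7, 7 of 9 did so, beside 44.9% of all genes. On day 2, 2 of 9 (Fgfr2 and Etv5) had both libraries above normoxia, beside 30.6% of all genes. The median of the 9 genes on day 7 against normoxia was -1.05, beside -0.18 over all genes.

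**Figure D2:**
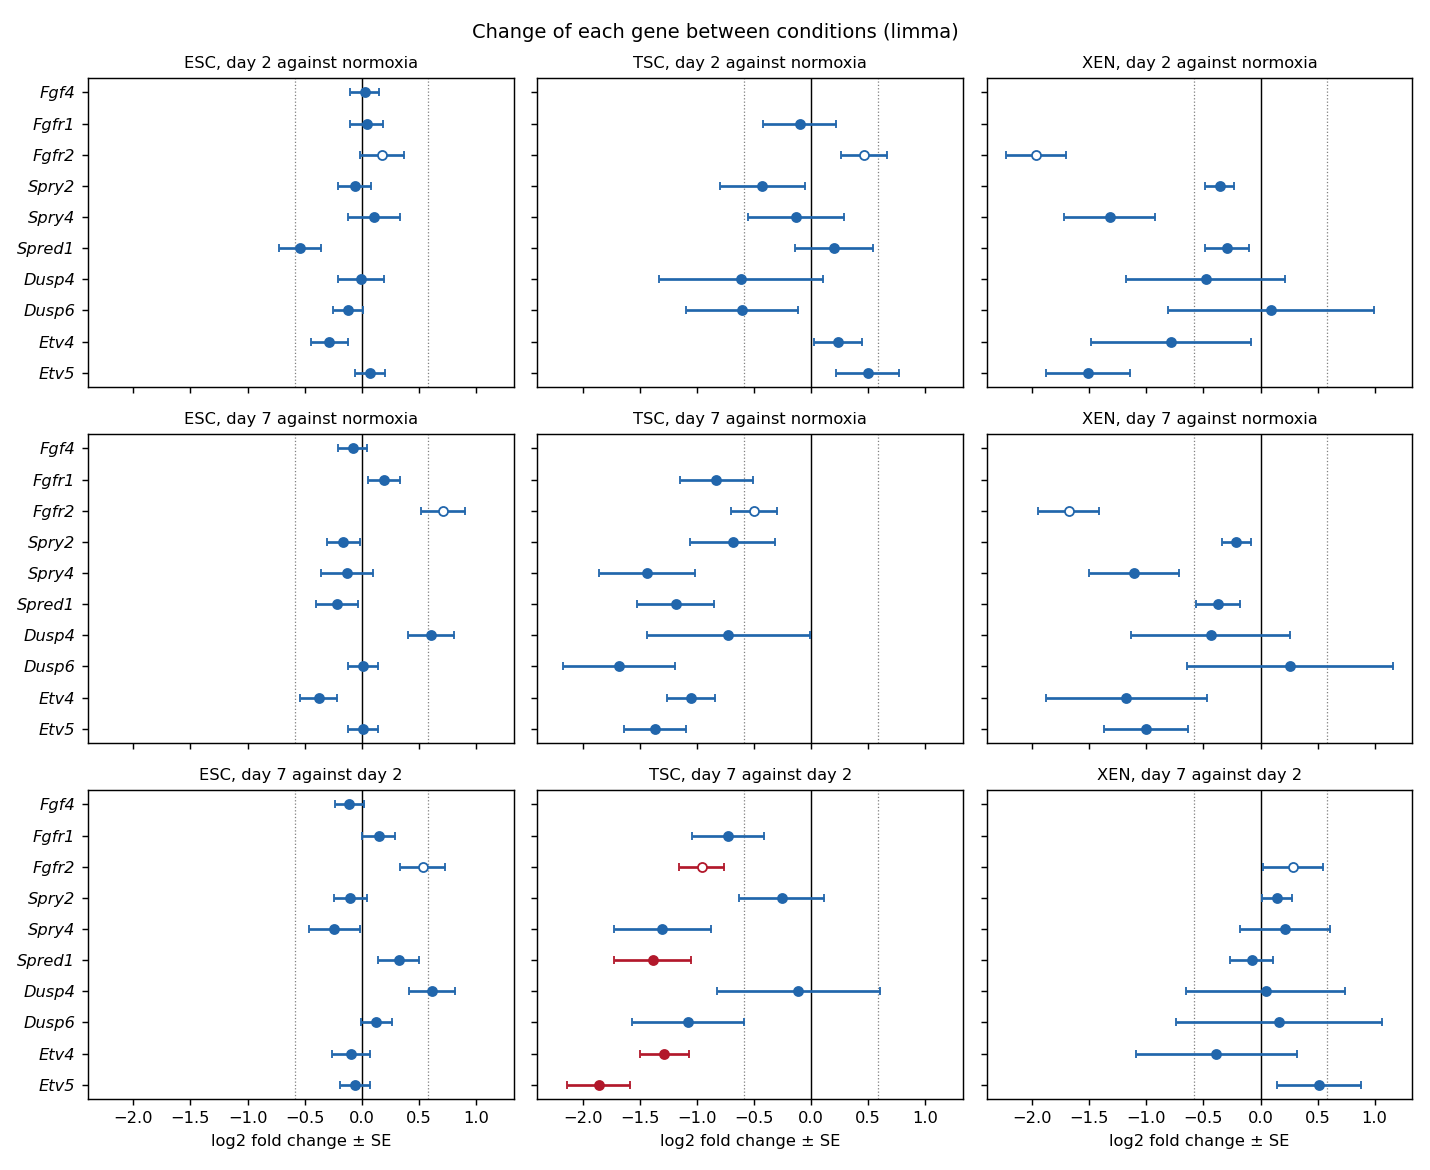
Log2 fold change ± SE from limma for each gene (rows within a panel) in each cell type (columns) and comparison (rows of panels). Red marks a called change, dotted lines a 1.5-fold change, and open symbols Fgfr2, fitted per exon length. Calls appear only in TSCs from day 2 to day 7, for Etv5, Etv4, Spred1 and, per exon length, Fgfr2.

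The decrease in TSCs rested on few libraries. Without day 2 replicate 1, or without day 7 replicate 2, 0 of the 9 genes were called, and Etv5 then had adjusted p-values of 0.15 and 0.17, Etv4 of 0.17 and 0.18 and Spred1 of 0.17 and 0.25. Over all genes, the 2019 calls became 30 and 0. Without day 2 replicate 2 or day 7 replicate 1 the calls of Etv5 and Etv4 were kept and that of Spred1 was lost (adjusted p = 0.16 in each). Across these fits the log2 fold change ran from -2.15 to -1.58 in Etv5, from -1.45 to -1.12 in Etv4 and from -1.70 to -1.07 in Spred1. Leaving out normoxia replicate 1 or 2 changes only the estimate of the spread, and the median log2 fold change of the 9 genes stayed at -1.08.

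Fibroblast markers differed widely between replicates of the TSCs. The summed TPM of the 12 markers was 2011 and 298 in normoxia, 1052 on day 2 in replicate 2 and 232 in replicate 1, and 497 and 298 on day 7, and none of the 12 was listed at 0. In normoxia all 9 genes were higher in the replicate with more fibroblast transcripts. On day 2 it was 5 of 9, with Fgfr1, Fgfr2, Etv4 and Etv5 lower there, and on day 7 it was 7 of 9, with Spry2 and Dusp6 lower. Among the 3 libraries with the lowest sums, 1 of each condition and all between 232 and 298, 8 of the 9 genes had their lowest TPM in the one of day 7, Spry2 being the exception. These counts of members stand without a share over all genes, which was not computed. Over all 12481 genes tested, 1815 were over 1.5-fold higher in day 7 replicate 1 and 372 in day 7 replicate 2. Replicate 2 is the day 7 library among those 3. The part of the feeders in these values was not tested.

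**Figure D3:**
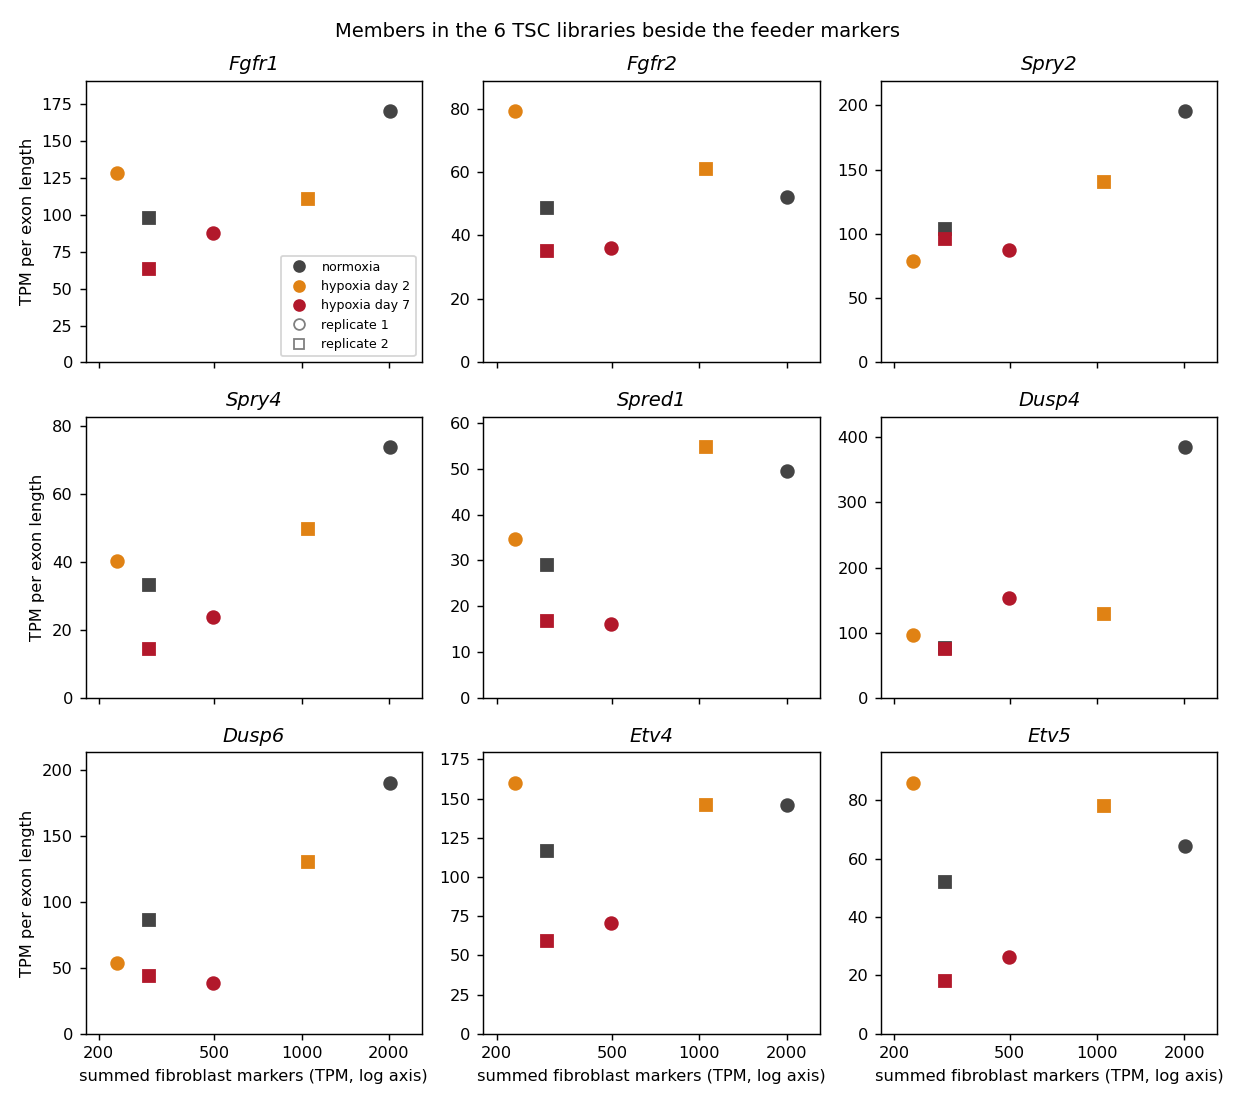
TPM per exon length of the 9 genes in the 6 TSC libraries (vertical axes from 0) against the summed TPM of 12 fibroblast markers (log axis), coloured by condition. Both day 7 libraries lie below the other 4 for all genes but Spry2 and Dusp4. Fgfr1, Spry2, Spry4, Dusp4 and Dusp6 are highest in the normoxic library with a sum of 2011.

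Markers of the TSC state changed in the same comparison. From day 2 to day 7, 5 of the 7 TSC markers were called lower, beside 13.8% of all genes. Among them were Elf5 (82.5 and 85.1 to 18.8 and 14.7 TPM), Esrrb (28.0 and 28.2 to 8.89 and 5.64) and Cdx2 (88.0 and 169 to 40.3 and 35.1). The other 2, Tfap2c and Ets2, lay above day 2 without overlap, beside 14.3% of all genes, and were not called. Sox2, which FGF signalling sustains in these cells, went from 1045 and 1104 to 172 and 129 TPM. Of 8 trophoblast differentiation markers tested, 3 were called, beside 16.2% of all genes, with a list median of 0.03. Plac1 and Prl3d1 rose by 2.46 and 2.15 on the log2 scale and Gcm1 fell by 1.38. Whether the decrease of Etv4, Etv5 and Spred1 is part of that shift was not tested.

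In ESCs, no member was called in any comparison. The shares of genes called were 0% on day 2, 0.758% on day 7 and 0.179% from day 2 to day 7. At an unadjusted p under 0.05 limma gave 1 of 9 on day 2 (Spred1, beside 5.05% of genes), 2 of 9 on day 7 (Dusp4 and Etv4, beside 8.04%) and 1 of 9 from day 2 to day 7 (Dusp4, beside 4.26%), and voom on the recovered reads called 0 of 10 in each. On day 2 limma called 0 of 12271 genes, with 620 at an unadjusted p under 0.05, and voom called 6. The median log2 fold changes of the 9 genes tested were -0.005, -0.08 and -0.06.

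Spred1 had 24.2, 22.4, 16.5, 15.1, 23.5 and 16.9 TPM in the ESC libraries. It was the only member of 9 (beside 14.4% of genes) with both day 2 libraries below normoxia (-0.54 ± 0.18, adjusted p = 0.87), while day 7 replicate 1 was back at the normoxic level. Dusp4 had 21.7, 19.1, 19.0, 21.7, 38.4 and 25.6 TPM. Its day 7 libraries lay above the other 4, with a difference of 0.61 ± 0.20 from normoxia (adjusted p = 0.43), but replicate 1 stood well above replicate 2. Etv4 had 131, 98.5, 102, 85.8, 88.3 and 86.7 TPM, and normoxia replicate 1 stood above the rest (-0.38 ± 0.16 on day 7, adjusted p = 0.61).

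Fgfr2 had 9.17, 8.82, 11.2, 9.39, 13.9 and 16.4 TPM per exon length in ESCs, with the day 7 libraries above the other 4. Its difference from normoxia on day 7 was 0.71 ± 0.19 per exon length (adjusted p = 0.19) and 0.75 ± 0.17 by voom (adjusted p = 0.14), so it was not called. It did not pass the filter on deposited TPM. Fgfr1 had 21.2, 18.9, 20.04, 21.2, 22.3 and 23.6 TPM, with day 7 just above the others (0.20 ± 0.14, adjusted p = 0.88).

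Fgf4, Etv5 and Dusp6 were the steadiest in ESCs. Fgf4 differed from normoxia by 0.03 ± 0.13 on day 2 and by -0.08 ± 0.13 on day 7. Etv5 had between 116 and 138 TPM in the 6 libraries and Dusp6 between 196 and 239, and their day 7 differences were 0.01 ± 0.13 each. On day 7, 2 of 9 genes lay above normoxia without overlap (Fgfr1 and Dusp4, beside 23.0% of genes) and 1 below (Etv4, beside 17.5%). From day 2 to day 7, 4 lay above (Fgfr1, Spred1, Dusp4 and Dusp6, beside 15.2%) and 2 below (Fgf4 and Spry2, beside 8.80%).

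In XEN cells, no member was called either, where 0% of genes were called on day 2, 0.110% on day 7 and 0.0367% from day 2 to day 7. Limma called 0 of 10894 genes on day 2, with 846 at an unadjusted p under 0.05, and voom called 0. Of the 7 members that passed the filter on TPM, 3 were at an unadjusted p under 0.05 on day 2 (Spry2, Spry4 and Etv5, beside 7.77% of genes) and 2 on day 7 (Spry4 and Etv5, beside 9.01%). The count was 0 from day 2 to day 7, beside 11.9%. Voom called 0 of 9 in each comparison. On day 2, 4 of 7 lay below normoxia without overlap, beside 21.4% of genes, and on day 7 again 4 of 7, beside 23.9%. These were Spry2, Spry4, Spred1 and Etv5 on both days.

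Fgfr2 had 24.5, 26.0, 7.77, 4.77, 7.76 and 7.31 TPM per exon length in XEN cells, from 2647, 4589, 1395, 816, 969 and 633 reads. All 4 hypoxic libraries lay below both normoxic ones, by a wide gap. The log2 difference from normoxia was -1.96 ± 0.26 on day 2 (adjusted p = 0.20) and -1.68 ± 0.26 on day 7 (adjusted p = 0.12), and by voom -2.09 ± 0.23 (adjusted p = 0.12) and -1.74 ± 0.24 (adjusted p = 0.13). Neither was called. Fgfr1 had 49, 56, 23, 21, 10 and 15 reads in the same libraries, too few for the filter.

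Etv5 had 7.11, 6.30, 3.01, 1.31, 4.03 and 2.35 TPM in XEN cells, lower in all 4 hypoxic libraries (-1.51 ± 0.37 on day 2, adjusted p = 0.43, and -1.0 ± 0.37 on day 7, adjusted p = 0.50). Spry4 had 26.2, 26.5, 12.1, 8.65, 18.8 and 7.54 TPM, with the same order of groups and a wide gap between the day 7 replicates. Spry2 had 193, 189, 149, 149, 165 and 164 TPM. Its replicates were close, its conditions did not overlap, and it differed from normoxia by -0.36 ± 0.13 on day 2 (adjusted p = 0.60). It was the only member (1 of 7, beside 21.7% of genes) whose day 7 libraries lay above day 2 without overlap. Spred1 lay between 4.69 and 6.70 TPM in all 6 libraries.

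Replicates of some members stood far apart in XEN cells. Dusp6 had 118, 46.8, 94.0, 67.2, 251 and 31.4 TPM, and the day 7 replicates held the highest and the lowest value of the 6. Dusp4 had 171, 50.2, 65.6, 67.1, 129 and 36.4 TPM, and Etv4 had 70.7, 19.8, 28.1, 16.5, 28.9 and 9.13. In these 3 genes replicate 1 was the higher in normoxia and on day 7, with ratios of TPM + 0.5 of 2.51, 3.39 and 3.51 in normoxia and 7.88, 3.50 and 3.06 on day 7 for Dusp6, Dusp4 and Etv4. Over all 7 genes tested, replicates were over 1.5-fold apart for 3 in normoxia (beside 13.2% of genes), 2 on day 2 (9.67%) and 5 on day 7 (14.2%), with replicate 1 higher in each. Egr1, an immediate early ERK target named here after its values were seen, had another pattern. On the same scale, its level in replicate 1 was 0.137 of replicate 2 in normoxia, 16.9 times it on day 2 and 0.503 of it on day 7. Other ERK-responsive genes, also named after their values were seen, were mixed. In the same order the ratios were 0.412, 7.79 and 0.104 for Fos, but 8.91, 1.23 and 1.69 for Fosl1.

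Between TSC replicates, 6 of 9 genes were over 1.5-fold apart in normoxia, all higher in replicate 1, beside 19.9% of genes. On day 2 it was 3 of 9, all higher in replicate 2, beside 18.3%, and on day 7 it was 2 of 9, both higher in replicate 1, beside 17.5%. Dusp4 in normoxia showed the widest gap of the 9 genes (5.09-fold in TPM + 0.5). In ESCs, 0 of 9 genes were that far apart in any condition, beside 3.88%, 13.4% and 5.61% of genes.

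**Figure D4:**
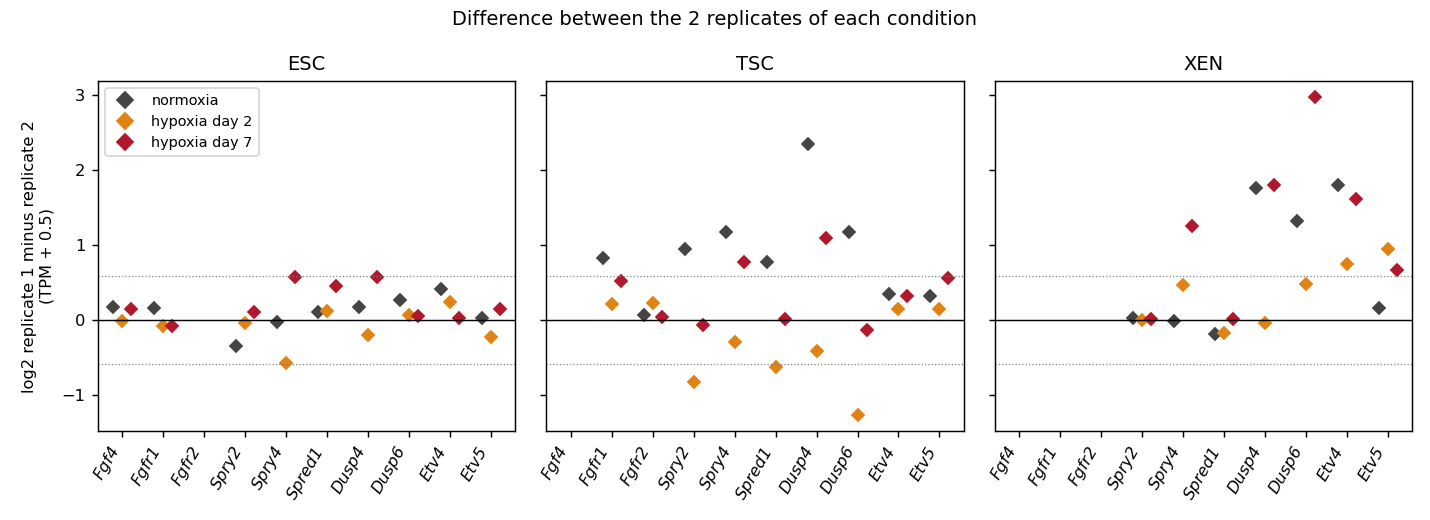
Log2 difference between replicate 1 and replicate 2 of each condition for the genes that passed the filter, from log2(TPM + 0.5), with dotted lines at 1.5-fold. In XEN cells the points of Dusp4, Dusp6 and Etv4 in normoxia and on day 7 lie above the upper line, and in ESCs all points lie between the lines.

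Ratios of related genes within a library do not depend on how a table was scaled, and all 4 pairs differed between ESCs and the other cell types. The ratio of Fgfr2 to Fgfr1 per exon length had a geometric mean of 0.248 in ESCs and 0.476 in TSCs, and of 56.5 among XEN libraries (mean log2 ratio of -2.01 ± 0.28, -1.07 ± 0.37 and 5.82 ± 0.52, SD, n = 6 libraries each, of 3 conditions). The ranges of ESCs and TSCs overlapped. TSC libraries also held fibroblast transcripts. In each TSC condition this ratio was lower in the replicate with more of them, and it was lowest in normoxia replicate 1 (0.306). The part of the feeders in the TSC ratios was not tested. Fgfr1 exceeded Fgfr2 in every ESC and TSC library and Fgfr2 exceeded Fgfr1 in every XEN library. The ratio in XEN cells rests on the 10 to 56 reads of Fgfr1. The ratio of Etv4 to Etv5 was 0.279 in ESCs (-1.84 ± 0.27), against 2.32 among TSC libraries (1.21 ± 0.32) and 2.42 among XEN libraries (1.27 ± 0.80), so Etv5 was the more abundant in each ESC library and Etv4 in each TSC and XEN library.

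The ratio of Spry2 to Spry4 was 1.31 in ESCs (0.39 ± 0.26), and higher with 3.22 among TSC libraries (1.69 ± 0.59) and 8.30 among XEN libraries (3.05 ± 0.67). The ratio of Dusp4 to Dusp6 had values of 0.374 (-1.42 ± 0.35), 1.68 (0.74 ± 0.78) and 3.14 (1.65 ± 0.54) in the same order. The mean log2 ratios of the cell types were compared in 12 two-sided exact permutation tests with Benjamini-Hochberg adjustment, in which 6 libraries against 6 allow no p below 0.0022. All 8 differences between ESCs and the other cell types passed 0.05, at that smallest p (adjusted p = 0.0032) in 7 of them and for Fgfr2 to Fgfr1 between ESCs and TSCs at an exact p of 0.0043 (adjusted p = 0.0058).

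Between TSCs and XEN cells, Fgfr2 to Fgfr1 (adjusted p = 0.0032, exact test) and Spry2 to Spry4 (adjusted p = 0.010, exact test) differed. Dusp4 to Dusp6 just missed 0.05 (exact p = 0.0498, adjusted p = 0.054), and Etv4 to Etv5 did not differ beyond the spread of the libraries (exact p = 0.87). The libraries of a cell type come from 3 conditions, so these p-values measure the spread between libraries only. With normoxic libraries alone, 2 against 2, an exact test cannot go below 0.33.

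**Figure D5:**
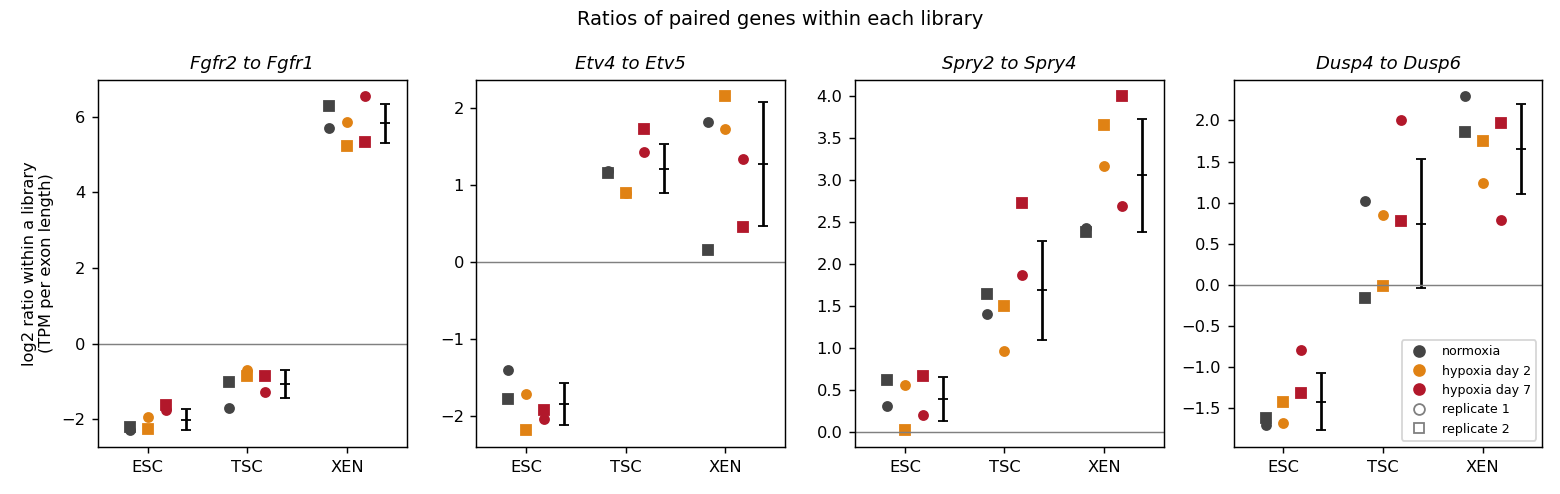
Log2 ratio of paired genes within each library, per exon length, with the mean and SD of the 6 libraries of a cell type in black. ESC libraries lie below 0 for Fgfr2 to Fgfr1, Etv4 to Etv5 and Dusp4 to Dusp6, and XEN libraries lie above 0 in all 4 pairs.

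The wider pathway was read from lists of genes that the set does not hold. In TSCs from day 2 to day 7, other receptors and co-receptors gave 3 lower and 1 higher of 13 tested. Fgfr4 fell from 36.6 and 24.8 to 5.98 and 2.14 TPM, and Fgfr3 from 13.0 and 8.81 to 4.73 and 3.94, whereas the proteoglycan Sdc1 rose from 45.7 and 99.5 to 184 and 188. Of 16 other negative regulators, 3 were lower and 1 higher. Spry1, a further Sprouty gene, went from 129 and 71.2 to 15.3 and 10.9 TPM (-2.84 ± 0.32, adjusted p = 0.014). Il17rd, which encodes the inhibitor SEF, fell by 1.92, and Spred2 by 0.88, while the phosphatase gene Dusp5 rose by 1.46.

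These shares, and those of the lists that follow, stand beside the 16.2% of all genes called from day 2 to day 7 in TSCs. Of 12 heparan sulphate enzymes 1 was higher (Hs3st1) and 1 lower (Hs3st3b1, 36.0 and 53.5 to 5.67 and 2.90 TPM). Of 18 other ERK-responsive transcription factors 1 was higher (Fosl1, by 2.4 on the log2 scale) and 1 lower (Egr1, 305 and 321 to 80.9 and 62.1 TPM). Of 10 adaptors and exchange factors 1 was lower (Frs3), and of 14 kinases and GTPases of the RAS, RAF, MEK and ERK cascade and 4 ligands, limma called 0. The list medians were -0.26 for receptors, 0.01 for negative regulators, -0.18 for heparan sulphate enzymes, -0.27 for adaptors, 0.00 for the cascade and 0.14 for transcription factors, beside -0.24 over all genes. Against normoxia, day 7 calls of these lists were Hs3st3b1 (-2.73), Spry1 (-2.13) and Egr1 (-1.99), all lower, and day 2 gave none.

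In ESCs the only pathway call was the ligand gene Fgf8 on day 7, at 0.829 and 1.80 TPM in normoxia and 5.84 and 3.89 on day 7 (1.59 ± 0.29, adjusted p = 0.080). The ligand gene Fgf21 had 2.37 and 1.68 TPM in normoxia and 7.00 and 8.20 on day 2 without a call (adjusted p = 0.22). In XEN cells no gene of these lists was called. Spry1 there had 31.7 and 7.73 TPM in normoxia and 0.627 and 1.81 on day 7 (-3.33 ± 0.68, adjusted p = 0.23).

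Genes whose log2 TPM followed a member most closely were sought among 10081 genes over all 18 libraries, as a description, after the mean of each cell type was taken off. The libraries share conditions and depth. The highest Pearson r was 0.976 for Spred1 (with Xxylt1), 0.936 for Etv5 (Scarb2), 0.920 for Dusp6 (Slc7a5) and Spry2 (Rnf149), 0.915 for Spry4 (Alg10b) and Dusp4 (Farp1), and 0.888 for Etv4 (Atp13a3). Of the 3 closest genes of each member, 1 was itself in the set: Etv5 for Spry4 (r = 0.889). Fgfr1 and Fgfr2 were not ranked, since they did not pass the filter in all cell types.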

How the data were processed

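The authors trimmed reads with cutadapt 2.4, aligned them to mm10 with STAR 2.7.5a, and deposited TPM of protein-coding genes past a CPM filter, in a table per cell type. Columns named day 0 were taken as normoxia. Whole reads behind the deposited TPM were recovered with a tolerance of 0.05 for 98.5% to 98.7% of genes, with Python 3.11.15 and pandas 2.3.3, using gene span as the length, and gave depth, TPM per exon length and voom. The log2(TPM + 0.5) of genes above 0.4 TPM in at least 2 of 6 libraries was fitted with limma 3.58.1 (R 4.3.3) and a mean-variance trend. Each gene had its own spread in a cell type, shared by the conditions. The fit was tested on simulated data. Thresholds were those of the report. The authors' edgeR test was not rerun. At the same thresholds, the paper reports more changed genes than limma called here, in each cell type and on both days against normoxia. A gene not called here may therefore be called by edgeR. All members were named. From each pathway and marker list at most the 3 largest calls per direction were named, or else at most 2 uncalled genes past 1.5-fold without overlap, and for members of all tables the 3 genes most alike. Members, lists and rules were chosen with earlier results of these data known. Alternatives were other pseudocounts, filters, scalings and spreads, the replicate block, voom and libraries left out. Replicates were biological, per the study's methods.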

Additional observations from a re-analysis of the deposited data

Results flagged for a closer look

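Directions of single genes that were opposite in different cell types, with all libraries of one moving one way and all of the other the opposite way, are listed as log2 ratios of mean TPM per exon length. None of these differences between cell types was tested. From normoxia to day 7, Fgfr1 differed by 0.19 (ESCs), -0.83 (TSCs) and -1.61 (XEN cells), the last from 10 to 56 reads, and Fgfr2 by 0.75 (ESCs), -0.51 (TSCs) and -1.75 (XEN cells). From normoxia to day 2, Fgfr2 differed by 0.20 (ESCs), 0.48 (TSCs) and -2.01 (XEN cells), and Etv5 by 0.50 in TSCs and -1.67 in XEN cells. From day 2 to day 7 the values in ESCs and TSCs were 0.15 and -0.66 for Fgfr1, 0.55 and -0.98 for Fgfr2, 0.34 and -1.44 for Spred1 and 0.12 and -1.16 for Dusp6. Spry2 differed over the same days by 0.17 in XEN cells and -0.10 in ESCs. These values follow the deposited condition labels, and the comparisons with normoxia share their control libraries. The 12 groups of 6 within-library ratios held no outlying library by Dixon's criterion.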

How the results depend on the processing

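Of 147 alternative counts of called members, 140 stayed within 1.5-fold of the reported count or at 0. The reported count was 0 in every comparison but TSCs from day 2 to day 7. Those comparisons called at most 0.758% of genes, so counts that stayed at 0 say little. The 7 that moved belong to 2 comparisons, both in TSCs. In TSCs on day 7 against normoxia, the count of 0 became 1 (Etv5) per exon length, where 78 of 13117 genes were called. It also moved without normoxia replicate 2 (Spry4 and Dusp6). The median log2 fold change of the 9 genes was then -1.53, beside -0.22 over all genes. From day 2 to day 7 in TSCs, the count of 3 became 5 in a fit to the 4 libraries compared. In that fit 2214 of 12481 genes were called. The count also moved with single libraries left out. Of 1237 alternative fold changes, 1190 were counted as unchanged, and none reversed a call. Another 26, called in neither fit, switched sign by at least the SE of the reported fit, so they too kept their side of the threshold. The 1190 include uncalled fold changes that switched sign by less than the SE of the reported fit. With normoxic libraries alone, the differences of mean log2 ratios between ESCs and XEN cells were -1.95 for Spry2 to Spry4 and -3.74 for Dusp4 to Dusp6, and between TSCs and XEN cells -7.35 for Fgfr2 to Fgfr1 and -1.65 for Dusp4 to Dusp6. The last ran from -1.66 to -0.15 without single replicates. The causes were not tested.

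The labels do not say whether same-numbered replicates share a batch. Their deviations correlated between -0.46 and 0.27. With the replicate block, TSC calls from day 2 to day 7 were 1975 over all genes and 4 members (Spry4 added), ESC day 7 calls went from 93 to 18, TSC calls from 25 to 3 on day 2 and from 48 to 13 on day 7, XEN day 7 calls from 12 to 43 and ESC calls from day 2 to day 7 from 22 to 6. No other member count changed under the block. With crossed numbers, chosen after seeing the data, there were 60 calls in ESCs from day 2 to day 7, 1 in XEN cells over the same days and 326 in TSCs on day 2. A fit to the 4 libraries compared gave 320 calls in ESCs on day 7.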
